A study of Gallus gallus with 40 samples.

Results

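White striping (WS) is a breast myopathy of fast-growing broilers in which white lines of fat and connective tissue run along the muscle fibers. The comparison of severe with mild WS was described here by gene programs, from 11 of the 40 arrays of the series, 4 titled severe WS and 7 titled mild WS. Each array carried cyanine 3-labeled RNA from the pectoralis major, the large breast muscle, of male ROSS broilers, 7 weeks old per the study's methods. The labels name several farms and the methods the facility of a single producer, and the series holds more mild WS arrays than the methods count mild WS birds, so that p-values measure the spread between arrays, which need not all be separate birds. Severe and mild refer to the number and thickness of the visible lines, and birds with wooden breast were left out per the study's methods, although the label fields of these arrays place the level under the wooden breast defect and give no WS. Titles were therefore followed. Moderate WS arrays (6, the same muscle, age and sex) entered the model for its estimate of slide and spread. Their comparison with mild WS is given only beside the lists of mitochondrial energy metabolism. Beside some results, 4 arrays titled non_defective_WS, here called non-WS, are also given. These were male birds too, but their age is not in the labels, and the methods found no bird free of WS among those of the study.

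The chicken breast is made almost entirely of fast glycolytic fibers, which burn glycogen and hold few mitochondria and capillaries. Around the fibers lie endothelial cells, pericytes, fibroblasts, adipocytes, nerve ends and immune cells, and RNA of whole muscle mixes them all. In such bulk RNA, fewer cells of a type and less RNA per cell cannot be told apart. Fast muscle defined all arrays, since *TNNT3* and *TNNI2*, fast troponins of the thin filament, averaged 231930.0 and 241650.0 normalized intensity units in severe WS and 225360.0 and 230650.0 in mild WS. The cardiac and slow myosin *MYH7* and the smooth muscle myosin *MYH11* were well above background on 0 of 11 arrays. Other markers of these muscle types were detected. The cardiac troponin *TNNT2* was detected on 4 severe and 7 mild WS arrays, and the cardiac actin *ACTC1* on 2 and 6. The smooth muscle and pericyte markers *ACTA2*, *TAGLN* and *RGS5* were detected on all 11 arrays.

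Of 56401 probes, 33105 were well above background and at a signal of 20 or more on all 17 WS arrays, and these stood for 9434 of 13912 named genes. The median processed signal per array was 78.9 to 120.02 in severe WS and 110 to 229 in mild WS, and 67.7% to 72.7% of spots in severe WS and 71.3% to 75.4% in mild WS were well above background. Severe WS arrays were hybridized on slides 1 and 2 only, 2 on each, together with mild WS replicates 1 to 4, and the other mild WS arrays on slides 3 to 5. On slides 1 and 2 both severe WS and non-WS arrays lay in the first array row and mild WS arrays in the second, so that row and severity cannot be told apart. The median processed signal of the 4 non-WS arrays was 76.4 to 117.

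No probe was called at a false discovery rate of 0.05 and an absolute fold change of 1.2, which is 0.0% of the 33105 tested, and the smallest adjusted p was 0.353 (limma, slide as a factor). With the p left unadjusted (at most 0.05) and the same fold change, 1782 probes (5.38%) were higher and 1362 (4.11%) lower in severe WS. With each array scaled to its 75th percentile these counts were 2428 and 928, so that the share of the higher ones among both was 72.3% in place of 56.7%. Among the named genes, 408 (4.32%) were higher and 370 (3.92%) lower at that threshold. On neither slide did severe and mild WS arrays overlap for 1529 probes higher (4.62%) and 1516 lower in severe WS (4.58%), nor for 393 genes higher in severe WS (4.17%) and 437 lower in severe WS (4.63%). All exact permutations of arrays within slides number 36, so a single gene cannot reach a two-sided p below 0.056. Of all probes 47.6% had a positive and 52.4% a negative log2 fold change, and of the named genes 46.2% and 53.8%, with a median of −0.02. Slides 1 and 2 hold different arrays, which need not all be separate birds. Their log2 fold changes had the same sign for 57.5% of named genes. Across 9434 genes, which are not independent replicates, Pearson's r was 0.141 and Spearman's rho 0.189. The counts of each gene list below are to be read against these percentages, and no gene in it passed the adjusted threshold. A gene is represented by its brightest probe, and log2 fold changes are severe minus mild WS with the standard error (SE).

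**Figure D1:**
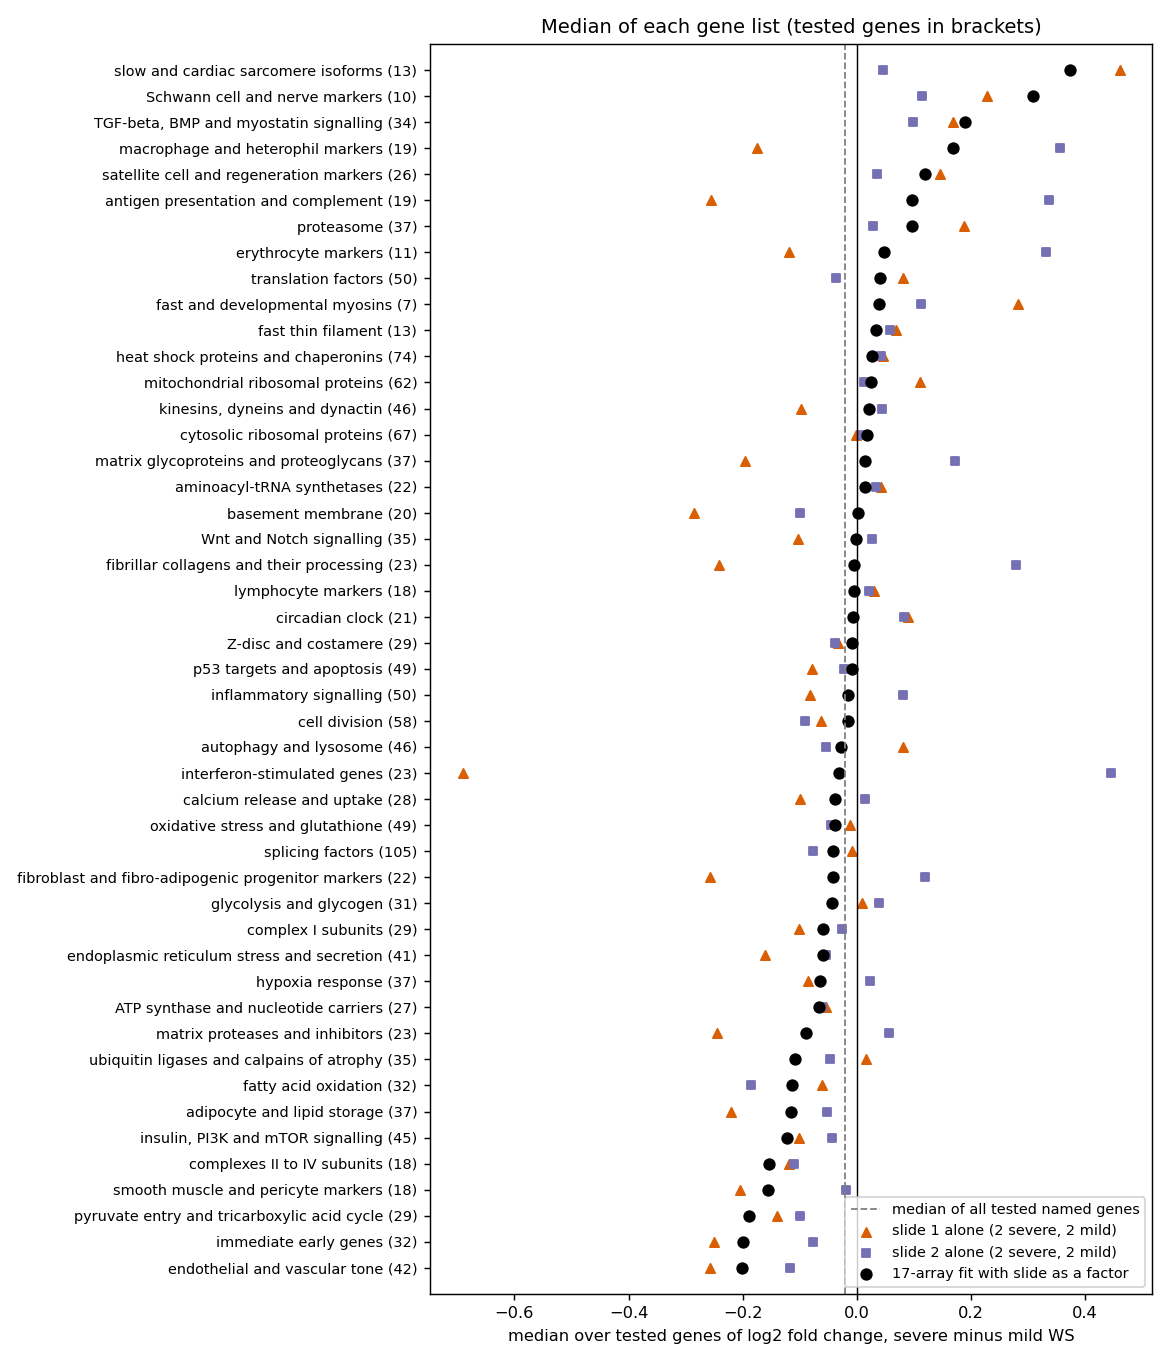
Median log2 fold change, severe minus mild WS, of each gene list other than that of the study, with the number of tested genes in brackets. Circles give the fit over 17 arrays, triangles slide 1 and squares slide 2 (2 severe and 2 mild WS arrays each), and the dashed line marks the median of all tested named genes, −0.02. Endothelial genes lie at −0.20, with −0.26 on slide 1 and −0.12 on slide 2, whereas interferon genes lie at −0.69 on slide 1 and 0.45 on slide 2.

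Endothelial and vascular genes had the lowest median of the 48 lists in the main fit, −0.201, next to −0.199 for immediate early genes. This rank did not hold in every setting. Without severe WS replicate 1 the medians of these lists were −0.18 and −0.35. Endothelial cells line the vessels that carry oxygen and nutrients to the fibers. Of 42 tested genes, 32 had a negative and 10 a positive log2 fold change, with a median of −0.20 (−0.26 on slide 1 and −0.12 on slide 2). At the unadjusted threshold 8 genes were lower and 1 higher in severe WS, against 3.92% and 4.32% of all named genes, and 3 lower and 1 higher did not overlap on either slide. The median was negative in all 11 other settings of the processing and without any single array (−0.26 to −0.16). Here and in the lists below, the setting with a block by replicate number in place of the slide gave the same median as the main fit. That setting therefore could not change a sign. Mild WS replicate 7 added nothing to the contrast, and without it the median stayed at −0.20. The level of the list, which is the median over its genes of the log2 intensity relative to the mean of the 11 arrays, was −0.15, −0.24, −0.03 and 0.16 in severe WS and −0.09 to 0.18 with a median of 0.09 in mild WS. Severe WS replicate 4 thus lay above most mild WS arrays, and mild WS replicates 6 and 7 lay below 0.

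*PECAM1* (XM_004946203.2), an adhesion molecule of endothelial junctions, had normalized intensities of 11661, 8223, 12386 and 16338 in severe WS, against 10976 to 17062 with a median of 15120.0 in mild WS. Severe WS arrays lay below mild WS arrays on slide 1 and overlapped with them on slide 2, and the log2 fold change was −0.49 (SE 0.16, unadjusted p = 0.0099, adjusted p = 0.398). *CDH5* (NM_204227.1), the cadherin that ties endothelial cells to each other, had 2224, 2804, 3039 and 3303 in severe WS and 2672 to 4290 with a median of 3892 in mild WS. Its log2 fold change was −0.43 (SE 0.17 and adjusted p = 0.448), and severe WS lay below mild WS on both slides. The angiopoietin receptor *TEK* (XM_004949580.2) had 574, 444, 567.6 and 634 in severe WS and 603 to 806 with a median of 723 in mild WS.

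*TEK* was also separated on both slides, and its log2 fold change was −0.46 (SE 0.17 and adjusted p = 0.406). The study had already named *TEK* for this comparison on these samples, so its values are no independent evidence. *LYVE1* (NM_001199587.1), a hyaluronan receptor of lymphatic vessels that was chosen after its values were seen, had 268, 276, 291 and 376 in severe WS and 356 to 570 with a median of 474 in mild WS. Only severe WS replicate 4 reached into the mild WS range, and the log2 fold change was −0.64 (SE 0.23 and adjusted p = 0.411). *MMRN1* and *PROX1*, further genes of lymphatic endothelium chosen in the same way, had log2 fold changes of −0.74 and −0.39. In contrast, *NRP2* (XM_015289368.1), a coreceptor for vascular growth factors and semaphorins, had 2140, 2261, 2191 and 2324 in severe WS and 1606 to 3123 with a median of 1768 in mild WS. It was higher in severe WS on both slides (log2 fold change 0.42, SE 0.14 and adjusted p = 0.388), and the highest of all arrays was mild WS replicate 7. The growth factor receptor *KDR* had a log2 fold change of 0.13 (SE 0.20 and adjusted p = 0.872).

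In the fit with the non-WS arrays, non-WS minus mild WS gave log2 fold changes of −0.46 for *PECAM1*, −0.32 for *CDH5*, −0.39 for *TEK*, −0.27 for *LYVE1* and 0.43 for *NRP2*, and a median of −0.17 over the endothelial list. Both comparisons share the mild WS arrays, and both set the first array row against the second. The part of the array row in these values was not tested.

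Smooth muscle cells and pericytes wrap the vessels. Of 18 tested genes of theirs, 13 had a negative log2 fold change, with a median of −0.16 (−0.20 on slide 1 and −0.02 on slide 2). The median was −0.07 with scaling to the 75th percentile, −0.06 without mild WS replicate 1, −0.08 without severe WS replicate 1, −0.09 without severe WS replicate 3 and −0.24 without severe WS replicate 2. None was lower at the unadjusted threshold and 1 was higher. The level of the list was −0.14 to −0.02 in severe WS and 0.03 to 0.18 in mild WS, so that no array of either group overlapped. Smooth muscle actin *ACTA2* had 4651, 4693, 3651 and 3205 in severe WS and 4484 to 8531 with a median of 5752 in mild WS, and the cytoskeletal protein transgelin, *TAGLN*, had 16692, 15853, 10729 and 12134 in severe WS and 16263 to 27410.0 with a median of 19209 in mild WS. Their log2 fold changes were −0.43 (SE 0.21 and adjusted p = 0.524) and −0.39 (SE 0.19 and adjusted p = 0.516), and 1 other *ACTA2* probe had the opposite sign. The filamin gene *FLNA*, an actin crosslinker of many cell types, ran the other way at 0.93 (SE 0.37 and adjusted p = 0.443). It had 281 on severe WS replicate 1 and 71.2 to 113 on the other severe WS arrays, and 53.5 to 87.8 in mild WS.

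Vessel walls and fibers rest on a basement membrane. Its 20 tested genes split into 10 positive and 10 negative, with a median of 0.00 (−0.29 on slide 1 and −0.10 on slide 2). Of its chains, *COL18A1* (NM_204164.1), the source of the vessel-derived fragment endostatin, had 3803, 5135, 8073 and 6884 in severe WS and 5284 to 9217 with a median of 7763 in mild WS. Severe WS was lower on both slides (log2 fold change −0.48, SE 0.17 and adjusted p = 0.414). *COL4A1*, the main collagen of the sheet, had a log2 fold change of −0.36 (SE 0.16 and adjusted p = 0.497), and the integrin *ITGA3*, a laminin receptor, had 0.67 (adjusted p = 0.405).

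**Figure D2:**
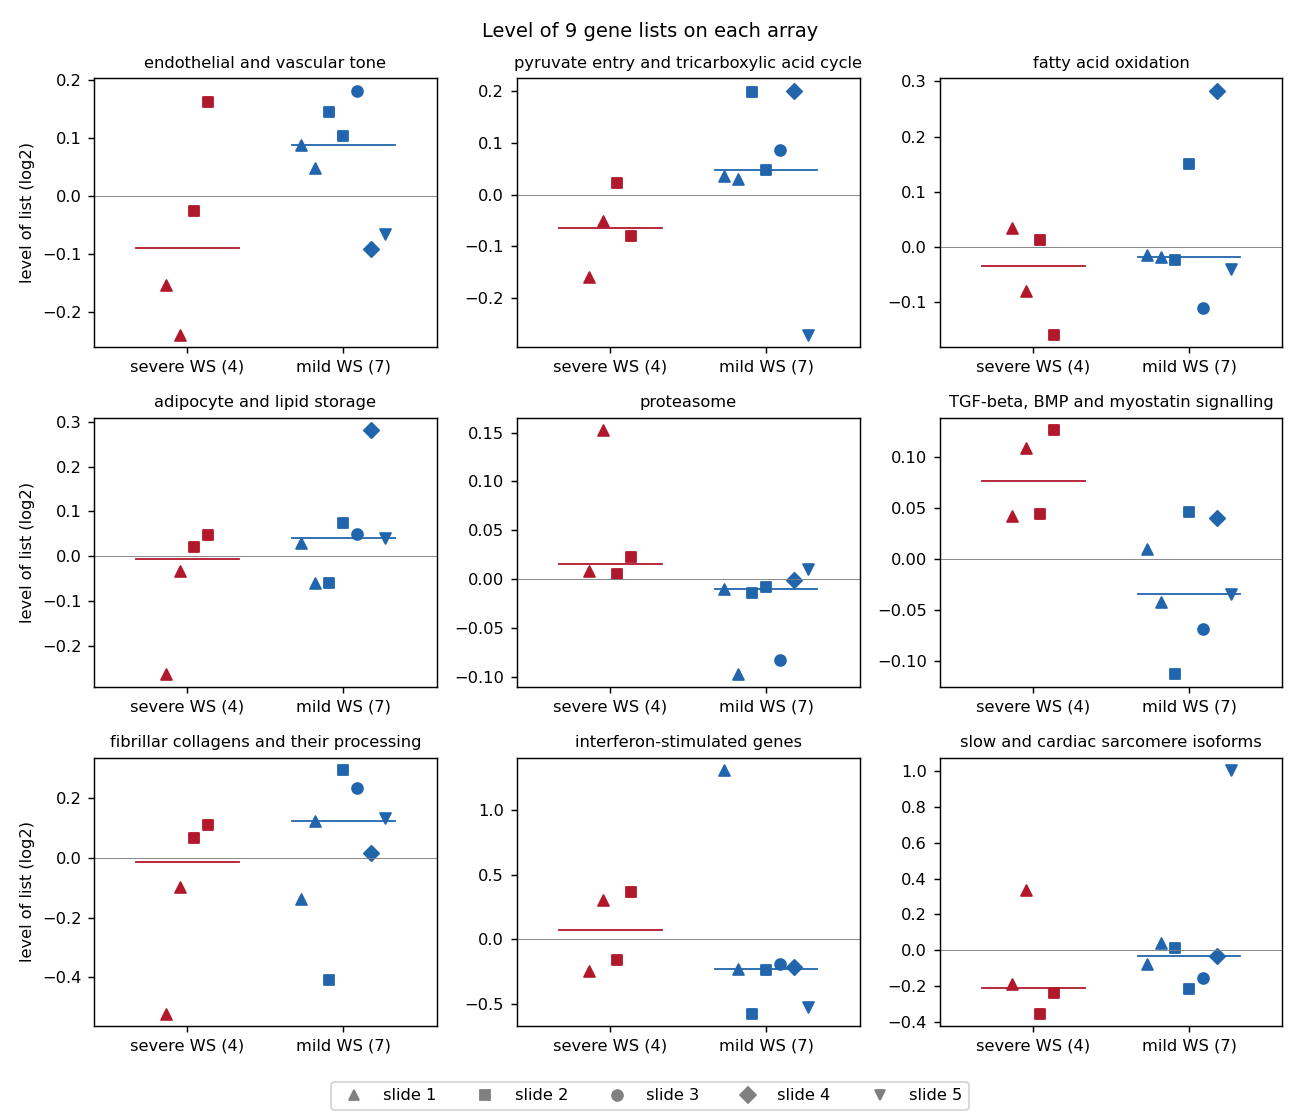
Level of 9 gene lists on each array, in log2 units relative to the mean of the 11 arrays, with severe WS (4 arrays) left of mild WS (7 arrays), symbols for slides and lines for group medians. The endothelial list lies between −0.24 and 0.16 in severe WS and between −0.09 and 0.18 in mild WS, and the interferon list reaches 1.31 on mild WS replicate 1.

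Genes of mitochondrial energy metabolism had mostly negative log2 fold changes. Mitochondria take up pyruvate from glycolysis and fatty acids, oxidize them in the tricarboxylic acid cycle and pass the electrons to the respiratory chain. For pyruvate entry and the tricarboxylic acid cycle, 23 of 29 tested genes had a negative log2 fold change, with a median of −0.19 (−0.14 on slide 1 and −0.10 on slide 2). Past the unadjusted threshold, 4 were lower and 0 higher, and 4 lower and 1 higher did not overlap on either slide. The median stayed negative in all 11 other settings (−0.21 to −0.11) and without any single array (−0.24 to −0.15). From the same mild WS arrays, the list median was −0.13 for non-WS minus mild WS and −0.18 for moderate minus mild WS. For severe minus non-WS it was −0.07. The level of the list was −0.16 to 0.02 in severe WS and −0.27 to 0.20 in mild WS. On slides 1 and 2 the severe WS arrays lay below the mild WS arrays, and mild WS replicate 7, alone on slide 5, was the lowest of all.

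*MDH2* (XM_415765.5), the mitochondrial malate dehydrogenase, had 24247, 27470.0, 31564 and 25842 in severe WS and 26458 to 37017 with a median of 32882 in mild WS. *PDHB* (NM_001198620.1), a subunit of the pyruvate dehydrogenase complex, had 2531, 2247, 2454 and 2836 in severe WS and 2449 to 3669 with a median of 3058 in mild WS. Both were separated on both slides, with log2 fold changes of −0.39 (SE 0.13 and adjusted p = 0.398) and −0.35 (SE 0.13 and adjusted p = 0.423). *IDH3A*, of the isocitrate dehydrogenase that sets the pace of the cycle, had −0.42 (SE 0.17 and adjusted p = 0.444). Citrate synthase, *CS*, which opens the cycle, had −0.02 (SE 0.13 and adjusted p = 0.983), and the mitochondrial aspartate aminotransferase *GOT2* was higher on both slides at 0.23 (SE 0.15 and adjusted p = 0.604).

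In the respiratory chain, 15 of 18 tested subunits of complexes II to IV had a negative log2 fold change (median −0.15, −0.12 on slide 1 and −0.11 on slide 2), as had 22 of 29 of complex I (median −0.06) and 21 of 27 of ATP synthase and the nucleotide carriers (median −0.07). At the unadjusted threshold 1, 1 and 0 of them were lower and 0, 0 and 1 higher. These 3 medians turned positive when arrays were scaled to the 75th percentile, to 0.01, 0.09 and 0.07. Without severe WS replicate 1 those of complex I and of ATP synthase and carriers were −0.03 and −0.01, and without severe WS replicate 2 they were −0.10 and −0.12. That scaling moved the named genes of the highest mean intensity (the top of 5 equal bins) to a median of 0.09, in place of −0.01. For complexes II to IV, complex I and ATP synthase with carriers, non-WS minus mild WS gave medians of −0.13, −0.08 and −0.10. Moderate minus mild WS gave −0.28, −0.18 and −0.19, and severe minus non-WS 0.01 for each list. The level of complexes II to IV was −0.24 to 0.06 in severe WS and −0.30 to 0.16 in mild WS, with overlap on slide 1. The level of complex I was −0.18 to 0.05 and −0.22 to 0.11. That of ATP synthase with carriers was −0.20 to 0.09 and −0.04 to 0.08. The latter 2 lists overlapped on both slides. *COX4I1* (NM_001030577.1), a subunit of cytochrome c oxidase, had 64549, 70212, 73888 and 55306 in severe WS and 56910.0 to 84909 with a median of 77377 in mild WS, and severe WS was lower on both slides (log2 fold change −0.29, SE 0.13 and adjusted p = 0.475). *ATP5SL* (XM_015274099.1), a gene named for its likeness to an ATP synthase subunit, ran the other way with 2682, 2133, 1882 and 2271 in severe WS and 1226 to 2245 with a median of 1584 in mild WS. It was separated on both slides, and its log2 fold change was 0.54 (SE 0.16 and adjusted p = 0.376).

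Of the genes of fatty acid oxidation, 24 of 32 had a negative log2 fold change, with a median of −0.11 (−0.06 on slide 1 and −0.19 on slide 2) that stayed negative in all 11 other settings. The list median was −0.09 for non-WS minus mild WS, −0.04 for moderate minus mild WS and −0.01 for severe minus non-WS. Past the unadjusted threshold, 4 were lower and 0 higher, and 4 lower and 1 higher did not overlap on either slide. The level of the list was −0.16 to 0.03 in severe WS and −0.11 to 0.28 in mild WS, with overlap on both slides. *UCP3* (NM_204107.1), a carrier of the inner mitochondrial membrane that is induced by fatty acids, had 77134, 39969, 57426 and 52015 in severe WS and 49459 to 107480.0 with a median of 85675 in mild WS. It was lower on both slides, with a log2 fold change of −0.94 (SE 0.31 and adjusted p = 0.398). *CRAT* (XM_415478.5), the carnitine acetyltransferase, had 3878, 4174, 4222 and 3955 in severe WS and 3718 to 6154 with a median of 5347 in mild WS.

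*CRAT* was lower on both slides at −0.27 (SE 0.10 and adjusted p = 0.417), although its other probe had the opposite sign. *CPT1A*, which loads fatty acids onto carnitine for entry into mitochondria, had 4716, 4423, 5185 and 3517 in severe WS and 3686 to 5991 with a median of 5489 in mild WS, and a log2 fold change of −0.40 (SE 0.16 and adjusted p = 0.440). *HADHA*, of the trifunctional protein, was higher in severe WS on both slides at 0.19 (SE 0.14 and adjusted p = 0.669). Glycolysis and glycogen genes, the main fuel route of this muscle, had a median of −0.04 over 31 genes, with 14 positive and 17 negative, and 0.18 with scaling to the 75th percentile. Their median was 0.01 on slide 1 and 0.04 on slide 2, both of the opposite sign to the fit. The values of *GAPDH*, 0.07, and *LDHA*, −0.15, had SEs of 0.09 and 0.22. *PPP1R3A*, which holds protein phosphatase 1 at glycogen, was the lowest by moderated t, at −0.38 (SE 0.15 and adjusted p = 0.432).

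**Figure D3:**
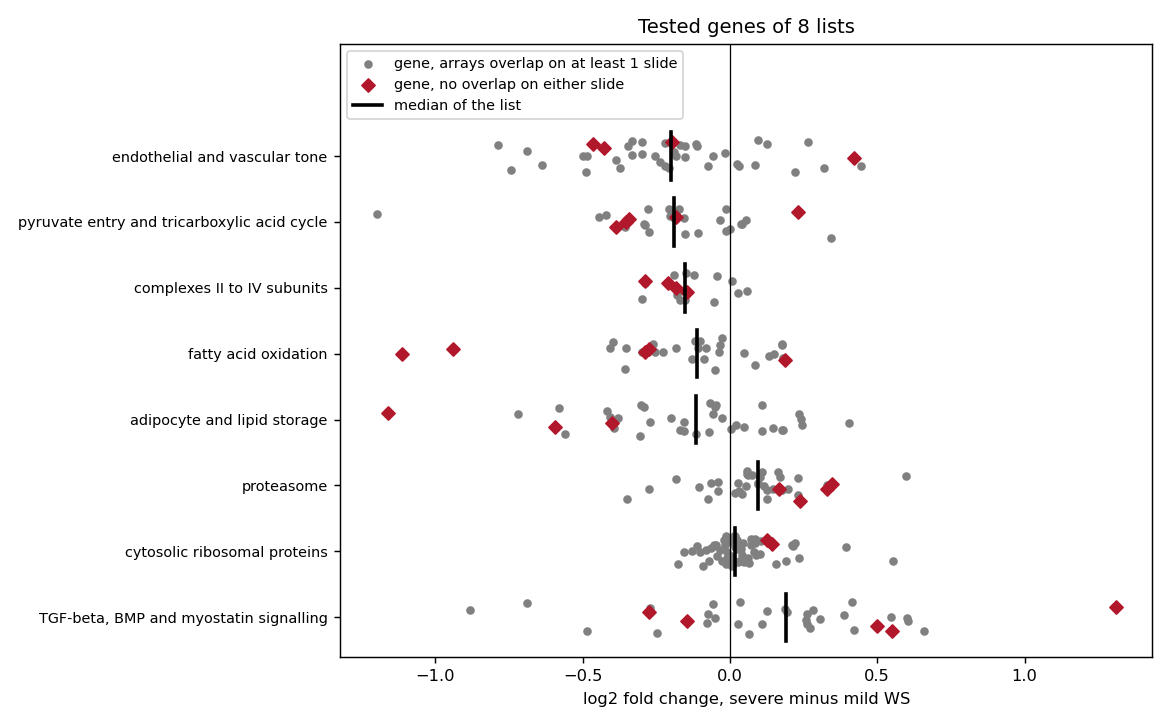
Log2 fold change, severe minus mild WS, of every tested gene of 8 lists. Diamonds are genes whose severe and mild WS arrays did not overlap on either slide, and vertical lines are list medians. Endothelial (−0.20), tricarboxylic acid cycle (−0.19), fatty acid oxidation (−0.11) and adipocyte genes (−0.12) lie mostly left of 0, proteasome (0.10) and TGF-beta and BMP genes (0.19) mostly right.

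Fat in the stripes is held by adipocytes, which store fatty acids that lipoprotein lipase has freed from plasma lipids. Of 37 tested adipocyte and lipid storage genes, 25 had a negative log2 fold change, with a median of −0.12 (−0.22 on slide 1 and −0.05 on slide 2). At the unadjusted threshold 3 were lower and 0 higher, and these 3 were also the ones that did not overlap on either slide. *ADIPOQ* (NM_206991.1), the adipocyte hormone adiponectin, had 10095, 10589, 11872 and 12775 in severe WS and 13227 to 17514 with a median of 15917 in mild WS. No severe WS array reached the lowest mild WS array, and the log2 fold change was −0.40 (SE 0.17 and adjusted p = 0.466).

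*DGAT2* (XM_419374.5), which makes triglyceride, had 467, 658, 705 and 498 in severe WS and 711 to 4540 with a median of 949 in mild WS. The groups did not overlap on any slide, although the mild WS range is wide, and the log2 fold change was −1.16 (SE 0.37 and adjusted p = 0.385). *LPL* (XM_015280414.1), lipoprotein lipase, had 1370, 2729, 2013 and 2422 in severe WS and 2521 to 3800 with a median of 3242 in mild WS. It was lower on both slides (log2 fold change −0.60, SE 0.22 and adjusted p = 0.413). The lipid droplet coat *PLIN1* had −0.29 (adjusted p = 0.850) and the fatty acid binding protein *FABP4* 0.14 (adjusted p = 0.901), and neither was separated. The level of the list overlapped on both slides, and its median was −0.05 without severe WS replicate 1 and −0.07 without mild WS replicate 1. From the same mild WS arrays, non-WS minus mild WS gave a list median of −0.22, with −0.39 for *ADIPOQ* and −0.75 for *DGAT2*. Severe minus non-WS gave 0.10 over the list, −0.01 for *ADIPOQ* and −0.41 for *DGAT2*.

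**Figure D4:**
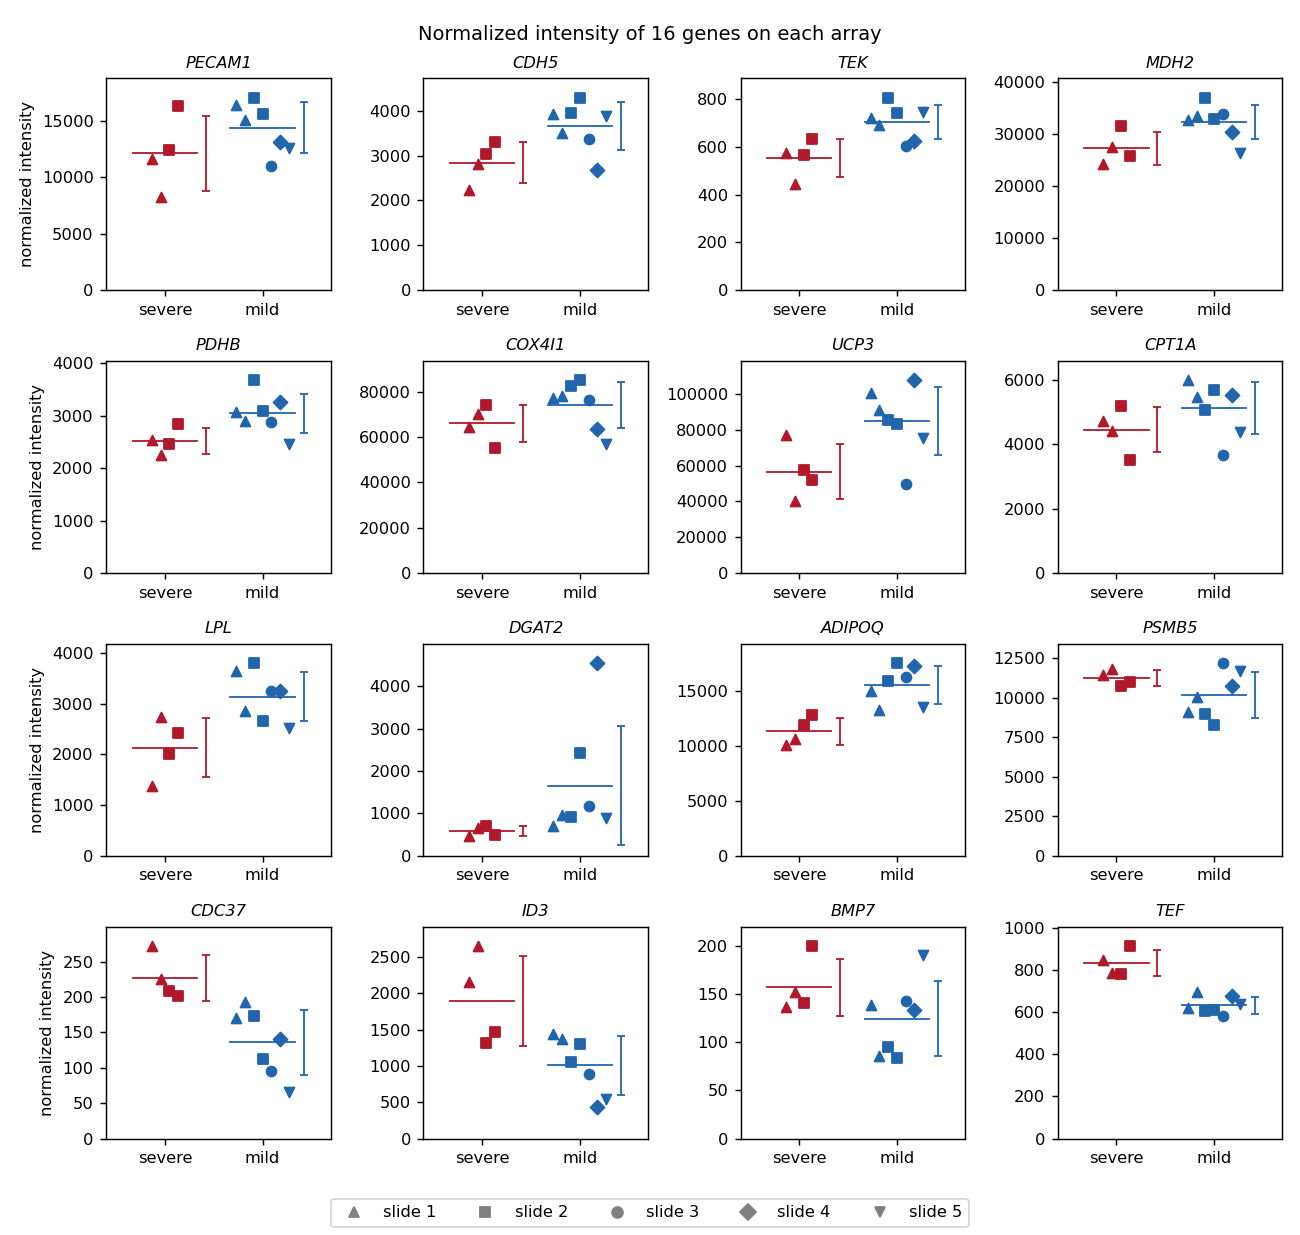
Normalized intensity of 16 genes on each array, with severe WS left of mild WS, symbols for slides, lines for group means and bars for the SD (n = 4 and 7). *ADIPOQ* does not overlap (at most 12775 in severe WS and at least 13227 in mild WS), nor do *DGAT2*, *CDC37* and *TEF*.

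Proteasome subunits had mostly positive log2 fold changes. The proteasome is the barrel-shaped protease, capped by regulatory particles, that breaks down ubiquitin-marked proteins. Of 37 tested subunits and regulators, 29 had a positive log2 fold change, with a median of 0.10 (0.19 on slide 1 and 0.03 on slide 2). Past the unadjusted threshold, 4 were higher and 0 lower, and 4 higher and 0 lower did not overlap on either slide. The median stayed positive in all 11 other settings (0.04 to 0.18) and without any single array (0.06, without severe WS replicate 2, to 0.13), and the level of the list was 0.01 to 0.15 in severe WS and −0.10 to 0.01 in mild WS. *PSMB5* (NM_001277726.1), a catalytic subunit of the core, had 11425, 11836, 10713 and 11002 in severe WS and 8292 to 12173 with a median of 10037 in mild WS. It was higher on both slides (log2 fold change 0.35, SE 0.11 and adjusted p = 0.388).

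*PSMD2* (NM_001012934.1), a scaffold of the cap, had 5338, 7719, 4354 and 5552 in severe WS and 1386 to 4798 with a median of 3838 in mild WS. The log2 fold change was 0.60 (SE 0.22 and adjusted p = 0.409) with overlap on slide 2. *PSMC2*, an ATPase of the cap, had −0.35 (SE 0.19 and adjusted p = 0.550). Non-WS minus mild WS gave a median of 0.14 over the list, 0.32 for *PSMB5* and 1.04 for *PSMD2*, from the same mild WS arrays. Among ubiquitin ligases, calpains and cathepsins of muscle atrophy, 15 were positive and 20 negative (median −0.11, but 0.02 on slide 1 alone, −0.01 without severe WS replicate 2 and −0.17 without severe WS replicate 1), with *TRIM63*, the muscle ligase MURF, at −0.58 (adjusted p = 0.690) and the lysosomal protease *CTSD* (NM_205177.1) at 0.45 (SE 0.21 and adjusted p = 0.516). *CTSD* had 1325, 1342, 1269 and 1552 in severe WS and 398 to 1204 with a median of 826 in mild WS, which did not overlap.

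The machines that make and fold proteins lay close to 0. The 67 cytosolic ribosomal proteins had a median of 0.02 (44 positive and 23 negative), the 62 mitochondrial ribosomal proteins 0.03 (37 and 25), the 50 translation factors 0.04 (28 and 22) and the 74 heat shock proteins and chaperonins 0.03 (42 and 32). With scaling to the 75th percentile they had 0.30, 0.12, 0.10 and 0.11, and without 1 array or another the medians of both ribosomal lists and of the translation factors fell on either side of 0. Among the chaperones, 4 were higher and 1 lower at the unadjusted threshold. *CDC37* (NM_204694.1), which brings kinases to HSP90, had 272, 225, 209 and 201 in severe WS and 66.4 to 193 with a median of 141 in mild WS, and the groups did not overlap on any slide (log2 fold change 0.51, SE 0.14 and adjusted p = 0.368). *CCT3* (XM_015298317.1), a subunit of the chaperonin that folds actin and tubulin and chosen after its values were seen, had 19539, 16041, 14607 and 15827 in severe WS and 9026 to 14500.0 with a median of 12836 in mild WS, also without overlap (0.38, SE 0.12 and adjusted p = 0.384).

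Endoplasmic reticulum stress and secretion genes were negative in 29 of 41 (median −0.06, −0.16 on slide 1 and −0.05 on slide 2, and −0.03 without severe WS replicate 1 and −0.13 without severe WS replicate 2). The lowest by moderated t, *SEL1L*, of the pathway that clears misfolded proteins, was lower on both slides at −0.29 (SE 0.10 and adjusted p = 0.398), while the chaperone *HSPA5* had 0.22 (SE 0.17 and adjusted p = 0.680). Splicing factors had a median of −0.04 over 105 genes, or 0.02 with scaling to the 75th percentile, and 6 higher and 7 lower ones did not overlap on either slide. *RBM33*, an RNA-binding protein, had 455.8, 414, 472 and 512 in severe WS and 395 to 709 with a median of 579 in mild WS and was lower on both slides (−0.44, SE 0.13 and adjusted p = 0.375). *RBM8A*, a core protein of the exon junction complex, was higher on both slides at 0.35 (SE 0.12 and adjusted p = 0.398).

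Genes of TGF-beta and BMP signaling had mostly positive log2 fold changes. TGF-beta drives fibrosis, BMPs signal through their own receptors to the ID genes, and myostatin, *MSTN*, limits muscle growth. Of 34 tested ligands, receptors, SMADs, antagonists and targets, 23 had a positive log2 fold change, with a median of 0.19 (0.17 on slide 1 and 0.10 on slide 2). The median was positive in all 11 other settings (0.09 to 0.23) and without any single array (0.11, without severe WS replicate 4, to 0.20). At the unadjusted threshold 4 were higher and 1 lower, and 3 higher and 2 lower did not overlap on either slide. The ligand *BMP7* (XM_417496.5) had 136, 152, 140.4 and 199.8 in severe WS and 83.7 to 190.3 with a median of 133.6 in mild WS, and a log2 fold change of 0.66 (SE 0.22 and adjusted p = 0.398) with overlap on slide 1. The BMP target *ID3* (NM_204589.1) had 2148, 2651, 1311 and 1463 in severe WS and 428 to 1444 with a median of 1057 in mild WS.

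*ID3* was higher on both slides at 0.50 (SE 0.17 and adjusted p = 0.398). *GREM1* (NM_204978.2), a BMP antagonist chosen after its values were seen, had 711, 1839, 383 and 946 in severe WS and 198 to 535 with a median of 266 in mild WS. It was higher on both slides, with a log2 fold change of 2.32 on slide 1, 0.76 on slide 2 and 1.31 in the fit (SE 0.54 and adjusted p = 0.452). The receptor *BMPR2* (XM_015289366.1) went the other way, with 1671, 1991, 2857 and 2079 in severe WS and 2275 to 3908 with a median of 2790 in mild WS (−0.69, SE 0.19 and adjusted p = 0.368), and overlapped on slide 2. The receptor *BMPR1A* was lower on both slides at −0.27 (SE 0.13 and adjusted p = 0.520), although 1 other probe had the opposite sign. *MSTN* had 0.60 (SE 0.31 and adjusted p = 0.547), with −0.01 on slide 1 and 1.06 on slide 2. The median of non-WS minus mild WS was 0.23 over the list, with 0.81 for *BMP7*, 2.21 for *GREM1* and −0.48 for *BMPR2*. For severe minus non-WS the list median was −0.12.

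Matrix genes did not run one way. Fibrillar collagens and the enzymes that process them had a median of −0.24 on slide 1, 0.28 on slide 2 and 0.00 in the fit over 23 genes, and matrix glycoproteins and proteoglycans −0.20, 0.17 and 0.01 over 37. The type I collagen chain *COL1A2* had 12932, 20004, 21523 and 26504 in severe WS and 17347 to 30180.0 with a median of 19942 in mild WS, with overlap on both slides and a log2 fold change of −0.03 (SE 0.27 and adjusted p = 0.982). Severe WS replicate 1 and mild WS replicate 3 were the low arrays of their groups, at list levels of −0.52 and −0.41. Of the fibrillar list 3 genes were higher and 0 lower at the unadjusted threshold. *P4HA3* (XM_417248.5), a prolyl hydroxylase of collagen, had 998, 2089, 1431 and 1750 in severe WS and 311 to 1312 with a median of 1034 in mild WS. It was higher on both slides (log2 fold change 1.14, SE 0.34 and adjusted p = 0.376), as was the membrane-bound matrix protease *MMP15* (0.51, SE 0.15 and adjusted p = 0.376). The fibril-associated collagen *COL12A1* had 1.14 (SE 0.51 and adjusted p = 0.491) and overlapped on at least 1 slide.

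Interferon, macrophage and antigen presentation genes had medians of opposite sign on slides 1 and 2. Interferon-stimulated genes had a median of −0.69 on slide 1 and 0.45 on slide 2, and a level of −0.25, 0.30, −0.16 and 0.36 in severe WS, against −0.58 to 1.31 with a median of −0.23 in mild WS. The highest array was mild WS replicate 1, on which the interferon-induced *IFI6* (NM_001001296.5), chosen after its values were seen, had 59230.0, against 484 to 1211 on the other mild WS arrays and 1247, 3156, 1409 and 8991 in severe WS. Macrophage and heterophil markers had medians of −0.17 on slide 1 and 0.36 on slide 2, and 0.17 in the fit, with 12 of 19 genes positive. That median was −0.03 without a slide term, −0.18 without severe WS replicate 2 and −0.07 without mild WS replicate 3. Antigen presentation and complement genes had −0.26 and 0.34 on these slides and 0.10 in the fit, with 15 of 19 positive, but −0.05 without severe WS replicate 2 and −0.02 without mild WS replicate 3. Within the complement list *MASP1* (XM_015291383.1), a protease of the lectin pathway, had 3489, 5233, 3182 and 2337 in severe WS and 664 to 3124 with a median of 1642 in mild WS, and was higher on both slides (0.71, SE 0.19 and adjusted p = 0.353). Lymphocyte markers had a median of −0.01 over 18 genes. Erythrocyte markers, which report blood left in the sample, had 6 positive and 5 negative genes, and hemoglobin *HBA1* had 25611, 16263, 17131 and 25177 in severe WS and 10049 to 24247 with a median of 16776 in mild WS (0.37, SE 0.34 and adjusted p = 0.742).

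Contractile genes followed. Fast thin filament genes had a median of 0.03 over 13 genes, or 0.40 with scaling to the 75th percentile, and Z-disc and costamere genes −0.01 over 29, or 0.06 with scaling to the 75th percentile. Slow and cardiac sarcomere isoforms had 10 of 13 positive and a median of 0.37, with 0.46 on slide 1 and 0.05 on slide 2, but −0.001 in the values normalized by the authors and 0.07 without severe WS replicate 2, 0.11 without mild WS replicate 5, 0.18 without mild WS replicate 2 and 0.59 without mild WS replicate 6. The median was also 0.04 without a slide term, 0.08 with slide as a random block and 0.06 with the mean over all probes of a gene. The level of that list was −0.36 to 0.34 in severe WS and −0.22 to 1.01 in mild WS, and on slide 2 severe WS lay below mild WS. *ANKRD1* (NM_204405.1), a stretch-responsive protein of the sarcomere, had 35267, 27202, 18629 and 44078 in severe WS and 13585 to 34858 with a median of 18028 in mild WS (0.85, SE 0.26 and adjusted p = 0.376), with overlap on slide 2. The fast myosin *MYH1A* had 30127, 72826, 76644 and 78986 in severe WS and 18049 to 227100.0 with a median of 85365 in mild WS. Its log2 fold change was 0.57 (SE 0.46 and adjusted p = 0.698) although its mean was lower in severe WS, at 64646 against 117130.0 in mild WS. The brightest arrays were mild WS replicates 5 to 7, on other slides. *FHL2* (XM_004938512.2), a partner of titin and of transcription factors, had 88.9, 241, 227 and 368 in severe WS and 226 to 1432 with a median of 565 in mild WS (−1.38, SE 0.51 and adjusted p = 0.419).

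Satellite cells, the stem cells of muscle, and the nerve supply renew and drive the fibers. Satellite cell and regeneration genes had a median of 0.12 over 26 genes, 14 positive and 12 negative, but 0.01 in the values normalized by the authors and 0.04 without severe WS replicate 1 or without mild WS replicate 6 and 0.20 without severe WS replicate 3, and their levels overlapped on slide 2. At the unadjusted threshold 1 gene was higher and 1 lower, and 0 higher and 0 lower did not overlap on either slide. The differentiation factor *MYOG* had 0.71 (SE 0.44 and adjusted p = 0.591) and the acetylcholine receptor subunit *CHRND*, which spreads over denervated fibers, 0.88 (SE 0.38 and adjusted p = 0.466). The satellite cell markers *PAX7*, *MYF5* and *MYOD1* had 0.37, −0.09 and 0.21. Schwann cell and nerve genes were few (10 tested, 6 positive, median 0.31). Their level was 0.03 to 0.27 in severe WS and −0.28 to 0.05 in mild WS and separated on both slides, as it did for the proteasome and smooth muscle lists among others. At the unadjusted threshold 2 genes were higher and 0 lower, and 1 higher and 1 lower did not overlap on either slide. The severe minus mild median was 0.06 without severe WS replicate 1 and 0.06 without a slide term. Non-WS minus mild WS gave a median of 0.24 over the Schwann cell and nerve list, and severe minus non-WS −0.19. *PRX* (XM_015272491.1), periaxin of the myelin sheath, had 1022, 1065, 690.03 and 683 in severe WS and 272 to 655 with a median of 452 in mild WS, without overlap on any slide (log2 fold change 0.64, SE 0.16 and adjusted p = 0.353). The Schwann cell growth factor *NRG1* had 276, 136, 164 and 224 in severe WS and 54.5 to 261 with a median of 105 in mild WS (1.11, SE 0.38 and adjusted p = 0.398), and overlapped on slide 2. The myelin gene *MBP* and the Schwann cell factor *SOX10* had −0.48 and −0.24.

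Insulin, PI3K and mTOR genes were negative in 30 of 45 (median −0.12, −0.10 on slide 1 and −0.04 on slide 2, and −0.05 without severe WS replicate 2), with 3 lower and 0 higher at the unadjusted threshold. Of these, *TEK* is an angiopoietin receptor as given above, *IGFBP7*, a secreted binding protein of insulin-like growth factors that is abundant in vessels, had −0.43 (SE 0.19 and adjusted p = 0.492), and the scaffold *MAGI1* had −0.60 (adjusted p = 0.444). The study had already named *TEK* and *MAGI1* under this pathway for this comparison on these samples, so both are no independent evidence. *IGFBP7*, chosen after its values were seen, had 9328, 11388, 15776 and 15030.0 in severe WS and 13982 to 23459 with a median of 16365 in mild WS. The insulin receptor *INSR* and *MTOR* had −0.16 (adjusted p = 0.874) and −0.13 (adjusted p = 0.736). Hypoxia response genes had a median of −0.07 over 37 genes, or 0.03 with scaling to the 75th percentile, −0.01 without severe WS replicate 2 and −0.16 without severe WS replicate 1, with 3 higher and 1 lower at the unadjusted threshold, and 1 higher and 4 lower without overlap on either slide. The nitric oxide synthase *NOS2* had −0.75 (SE 0.28 and adjusted p = 0.424), and *HIF1A* and *VEGFA* had 0.22 (adjusted p = 0.663) and 0.45 (adjusted p = 0.727).

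Circadian clock genes had a median of −0.01 over 21 genes, or 0.03 with scaling to the 75th percentile, of which 4 were higher and 0 lower at the unadjusted threshold. Their median was 0.09 on slide 1 and 0.08 on slide 2. *TEF* (NM_205382.1), a clock-controlled transcription factor, had 850, 789, 782 and 916 in severe WS and 585 to 696 with a median of 619 in mild WS, with no overlap on any slide (log2 fold change 0.41, SE 0.13 and adjusted p = 0.384). The repressor *BHLHE41* had 1309, 1129, 933 and 1515 in severe WS and 701 to 2029 with a median of 1020.2 in mild WS, where the high arrays were mild WS replicates 5 to 7 (0.60, SE 0.17 and adjusted p = 0.375). *PER3*, a period gene chosen after its values were seen, had 229, 380, 235 and 312 in severe WS and 93.4 to 295 with a median of 189.8 in mild WS, and was higher on both slides (0.79, SE 0.30 and adjusted p = 0.422). Non-WS minus mild WS was 0.49 for *TEF*, 1.14 for *BHLHE41* and 0.97 for *PER3*. Immediate early genes, which respond to stimuli within minutes, were negative in 24 of 32, with a median of −0.20 (−0.25 on slide 1 and −0.08 on slide 2) and −0.34 for non-WS minus mild WS. The severe minus mild median was −0.35 without severe WS replicate 1 and −0.11 without severe WS replicate 2, and −0.08 without a slide term. The level of the list was 0.37, −0.28, 0.17 and −0.27 in severe WS. It was −0.56 to 0.60 with a median of 0.03 in mild WS, and overlapped on both slides. *EGR1* had 1347, 1226, 3681 and 480.2 in severe WS and 1180 to 4882 with a median of 2118 in mild WS (−1.07, SE 0.51 and adjusted p = 0.511). The time of day at which each bird was sampled is not given in the sources used here.

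Probes with a non-coding accession, for transcripts annotated without a protein, had mostly positive log2 fold changes. Of 2631 tested, 1721 (65.4%) had a positive log2 fold change and their median was 0.12 (0.15 on slide 1 and 0.09 on slide 2), against 46.0% positive and a median of −0.02 over 30474 coding probes. Past the unadjusted threshold, 262 of the 2631 non-coding probes were higher and 68 lower. Among the 30474 coding probes these counts were 1520 and 1294, and over all probes the shares were 5.38% and 4.11%. The medians were positive in each of 5 bins of mean intensity, between 0.07 in the brightest and 0.16 in the middle one, whereas those of coding probes lay between −0.04 and 0.00. The level of the class was 0.16, 0.09, 0.07 and 0.03 in severe WS and −0.10 to 0.04 in mild WS, and mild WS replicate 3 lay above severe WS replicate 4 on their slide. Without a filter on dim probes the median of the class was 0.05. Non-WS minus mild WS gave a median of 0.06, and the part of signal level and array row in these values was not tested. Probes for transcripts of the same gene are counted separately.

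**Figure D5:**
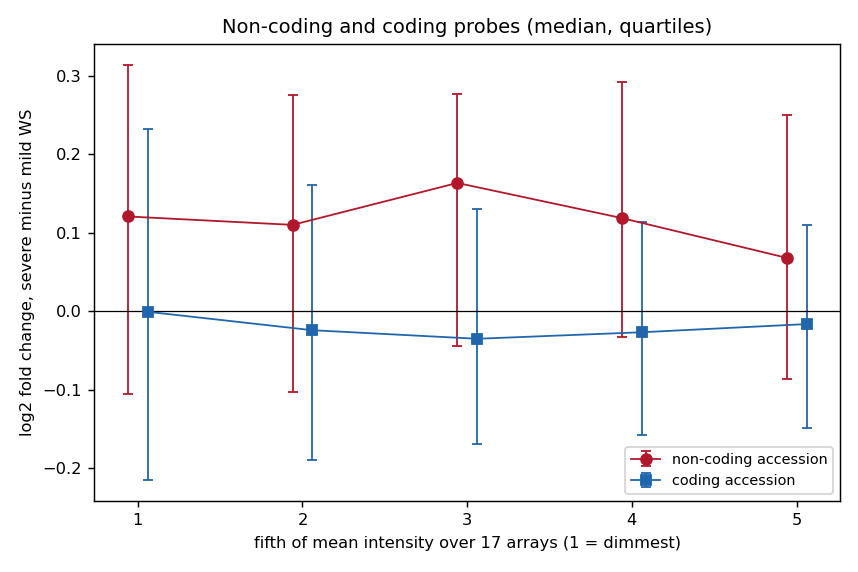
Log2 fold change, severe minus mild WS, of probes with a non-coding (circles) and a coding (squares) accession by bin of mean intensity (5 bins), given as medians with bars from the lower to the upper quartile. Medians of non-coding probes lie between 0.07 and 0.16 and those of coding probes between −0.04 and 0.00.

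Among named genes that did not overlap on either slide, those with the highest moderated t were *P2RX2*, *SEC16B*, *UBALD2*, *PADI3*, *GPRC5C*, *TEX264*, *GATSL2*, *GABRA5*, *RPN2* and *EXOSC5*, with log2 fold changes of 0.39 to 0.97. *P2RX2* (XM_004934420.2), an ATP-gated cation channel, had 105, 117, 70.9 and 67.4 in severe WS and 22.6 to 64.1 with a median of 40.8 in mild WS, without overlap on any slide (0.84, SE 0.15 and adjusted p = 0.353). *SEC16B* (NM_001031269.1), which organizes exit sites of the endoplasmic reticulum, had 311, 331, 232 and 149 in severe WS and 43.1 to 167 with a median of 88.01 in mild WS. Its log2 fold change was 0.97 (SE 0.17 and adjusted p = 0.353), and the overlap came from mild WS replicate 1 on the other slide. *UBALD2* (XM_015295308.1) had 267, 312, 147 and 136 in severe WS and 67.04 to 134.2 with a median of 105 in mild WS, with 1.28 on slide 1 and 0.42 on slide 2.

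Those with the lowest moderated t were *FYTTD1*, *MSH6*, *SUMF1*, *GNA14*, *THNSL1*, *NAT9*, *SNX20*, *MCTP2*, *CLDN11* and *G3BP1*, with log2 fold changes of −0.95 to −0.49. *FYTTD1* (NM_001031316.1), an adaptor of mRNA export, had 29.96, 38.9, 47.4 and 33.2 in severe WS and 60.3 to 97.2 with a median of 65.5 in mild WS, without overlap on any slide (−0.85, SE 0.14 and adjusted p = 0.353). *MSH6* (XM_015278118.1), of DNA mismatch repair, had 2676, 2975, 2485 and 2314 in severe WS and 2527 to 5083 with a median of 3536 in mild WS (−0.68, SE 0.13 and adjusted p = 0.353). *GNA14* (XM_429163.4), a G protein subunit, had 228, 142, 228 and 213 in severe WS and 84.2 to 448 with a median of 292 in mild WS. Its log2 fold change was −0.93 (SE 0.20 and adjusted p = 0.353), and mild WS replicates 5 to 7 lay below most severe WS arrays. Non-WS minus mild WS was 0.93 for *P2RX2*, 1.00 for *SEC16B*, 0.68 for *UBALD2*, −0.09 for *FYTTD1*, −0.40 for *MSH6* and −0.65 for *GNA14*.

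Genes that the study itself named for this comparison, 17 on the array and all tested, were chosen by it on these samples and are no independent evidence. Of them 10 had a positive and 7 a negative log2 fold change, and 6 higher and 6 lower did not overlap on either slide. *DCTN1*, a subunit of dynactin, had 0.51 (adjusted p = 0.375), *GABRA5*, a GABA receptor subunit, 0.49 (adjusted p = 0.353), and the calcium channel pore of store entry, *ORAI1*, 0.42 (adjusted p = 0.568).

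Of all 56401 probes, 1 was well above background on all 4 severe WS arrays and on none of the 4 mild WS arrays of slides 1 and 2. The reverse held for 34 probes, 11 of them with a gene symbol. Such probes pass only through the group in which they are detected, so the counts and the bound below describe them and test nothing. Among the 34, *KCND3* (NM_204326.1), a voltage-gated potassium channel, had the largest bound, at least 2.52-fold lower in severe WS. It had 2.84, 7.85, 12.95 and 8.93 in severe WS, not well above background, and 90.96, 47.11, 44.79 and 17.19 in mild WS. The bound is the mean of the brighter group over the higher of the dimmest detected signal and the probe's own signal on each dim array, on the log2 scale. All severe WS arrays were dimmer than the mild WS arrays on their slide, except for mild WS replicate 3, which lay below severe WS replicate 4.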

How the data were processed

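Breast muscle RNA was hybridized to custom one-color chicken arrays and read with Feature Extraction 10.7.1.1. The deposited processed signals are background-corrected intensity values. The deposited normalized table holds intensities that the authors made by quantile normalization and batch adjustment with ComBat, and their log2 was taken here. The batch given to ComBat is not given in the sources used here. The authors' table served as an alternative only. Gene symbols came from RefSeq through transcript accessions. Control spots were left out, and probes well above background with a signal of at least 20 on all 17 WS arrays were kept. The intensities of these probes were quantile-normalized over the 17 arrays and then put on the log2 scale. The fit used limma 3.58.1 (R 4.3.3) with group and slide as factors and Benjamini-Hochberg adjustment over 33105 probes. Mild WS replicate 7 was alone on its slide and added nothing to the contrast. Tables were handled with pandas 2.3.3 and numpy 2.4.6 in Python 3.11.15, and the fit was tested on simulated data.

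Named genes were the lead genes of each of 48 lists, the 2 members with the highest and the 2 with the lowest moderated t in each list, and the 10 highest and 10 lowest among genes without overlap on either slide. Other names are given as chosen after their values were seen. The gene lists and their members were chosen with earlier results of these data known. The background alternative (normexp, offset 50) used median spot signals, since those were the ones at hand. The number of arrays limits the precision. Alternatives were the scaling, background, filter, slide term, samples fitted, the methods' t-test and leaving out each array.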

Additional observations from a re-analysis of the deposited data

Results flagged for a closer look

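Of 202 groups of arrays tested with Dixon's criterion, 13 had 1 array far from the others, where chance gives about 10.1. Among genes, *NRP2* had 3123 on mild WS replicate 7, next to 2037 on the nearest mild WS array. *PSMD2* had 1386 on mild WS replicate 6, next to 3393. *MYH1A* had 30127 on severe WS replicate 1, next to 72826. *FHL2* had 1432 on mild WS replicate 1, next to 725. *IFI6* had 59229.7 on mild WS replicate 1, next to 1211, and *IGFBP7* had 23459 on mild WS replicate 4, next to 16838.

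Among the levels of gene lists, mild WS replicate 7 stood apart in slow and cardiac sarcomere isoforms (1.01), in the tricarboxylic acid cycle (−0.271), in complex I (−0.216) and in complexes II to IV (−0.302). Severe WS replicate 2 stood apart in the proteasome (0.152), mild WS replicate 1 in interferon-stimulated genes (1.31) and mild WS replicate 6 in adipocyte and lipid storage genes (0.281). Mild WS replicate 7 was alone on slide 5, so its own level and that of its slide cannot be told apart.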

How the results depend on the processing

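No probe was called under any of the alternatives run, by limma or by the methods' t-test after adjustment, and the smallest adjusted p without any single array was 0.145 to 0.525. That t-test was run here on the quantile-normalized signals of the 11 severe and mild WS arrays, without ComBat. The study ran its test after ComBat and on fewer mild WS birds than there are mild WS arrays here, and reported differentially expressed genes. The study's own calls were thus not repeated. With scaling to the 75th percentile 11 lists had a median below 0, in place of 29, and the median of coding probes was 0.01. Without a filter on dim probes 2718 probes were higher at the unadjusted threshold and 3871 higher without overlap, and the median of non-coding probes was 0.046. Slide 1 alone gave 1094 higher and 879 lower probes, and slide 2 alone 474 and 482, each from 4 arrays. Leaving out 1 array gave 19 to 33 lists with a median below 0 (19 without mild WS replicate 1), 1421 to 2216 higher and 1205 to 1730 lower probes, and, with fewer arrays to overlap, 1529 to 3221 higher and 1516 to 3249 lower probes without overlap, the most without mild WS replicate 3. Without a slide term *QARS* and *SEC31A* turned to −0.0078 and −0.017, and the cause was not tested. Deviations of same-numbered severe and mild WS arrays correlated at 0.06, −0.01, 0.10 and 0.06. After removal of the slide these were −0.16, 0.14, 0.03 and −0.18. With the other mild WS array of the slide they were −0.29, 0.12, −0.12 and −0.15. So few values cannot decide whether the numbers pair the arrays. A fit with the replicate block gave 1686 higher and 1313 lower probes. Dim probes limit what can be seen, since the severe WS arrays had the lower signals.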

Other observations

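Matrix proteases and inhibitors had 15 of 23 negative and a median of −0.09, with −0.25 on slide 1, 0.06 on slide 2 and −0.01 with scaling to the 75th percentile. Fast and developmental myosins had 6 of 7 positive and a median of 0.04, with 0.28 on slide 1, 0.11 on slide 2 and 0.32 with scaling to the 75th percentile. Cell division genes had a median of −0.02 over 58 genes (0.02 with scaling to the 75th percentile), and their level was −0.51 on severe WS replicate 1 and 0.40 on severe WS replicate 2, against −0.24 to 0.30 in mild WS. Autophagy and lysosome genes had 18 positive and 28 negative of 46, with none past the unadjusted threshold, and oxidative stress and glutathione genes 18 and 31 of 49, with levels of −0.30 on severe WS replicate 1 and 0.20 on severe WS replicate 2.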
